A study of Homo sapiens with 10 samples.

Results

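NRF2 target genes were followed as a group of 39 genes across treated and untreated 12Z cells. The 39 were drawn from the deposited gene table of 62750 gene IDs, by gene name: genes of antioxidant and detoxifying functions, together with the factor NFE2L2 (NRF2), its inhibitor KEAP1 and its partner MAFG. All 39 names were found in the table, and 37 had enough counts to be tested among 15740 tested genes. The glutathione peroxidase GPX2 had 0 to 6 counts per library and the reductase AKR1C2 had 0 to 4, so neither was tested. 12Z is an immortalized human line that the labels describe as epithelial, from peritoneal endometriosis. Every group was starved overnight in medium with 2% charcoal-stripped serum, and each held 2 libraries, all collected at 6 h. The 3 inhibitor groups received CDD-2728 at 1 µM, CDD-2728 at 10 µM or CDD-3013 at 1 µM for 30 minutes and then the cytokine IL1β at 10 ng/ml. The IL1β group received DMSO and the same dose of IL1β. The vehicle group is labelled as vehicle only, and no group received an inhibitor without IL1β. The series title describes the compounds as inhibitors of JNK, a kinase that activates the AP-1 factor JUN. They are known here by code name only, so no structural difference between them is given.

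NRF2 is a transcription factor that KEAP1 holds in the cytoplasm and passes to degradation. Oxidants and electrophiles modify KEAP1, and NRF2 then accumulates, pairs with a small MAF protein such as MAFG and binds antioxidant response elements in promoters and enhancers. The repressors BACH1 and BACH2 bind related sites with the same MAF partners. Targets of NRF2 make glutathione, recycle thioredoxin, supply NADPH, break down haem, store iron and detoxify quinones. Endometriotic lesions are exposed to haem and iron from bleeding, so that the haem and iron genes are of interest in these cells.

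Promoter windows of 300 bases (250 before and 50 after the transcription start, RefSeq, GRCh38.p14) were at hand for 32 of the 39 genes. GSR, PRDX1, HMOX1, FTH1, AKR1B10, ABCC1 and ABCC3 are named without one. The core of the antioxidant response element, TGACNNNGC on either strand, was in 12 of 43 windows of these genes (27.9%), belonging to 11 genes, and in 4687 of 35116 windows of all genes (13.3%). The AP-1 type site TGANTCA was in 3 of 43 windows (6.98%), against 7.71% of all windows. The motifs overlap where the sequence reads TGACTCAGC, which was in 2 of 43 windows and in 0.561% of all windows. A match is a description of the letters and not a shown binding site. The stretches below come from the genes whose levels or lack of change are described in the following paragraphs, are written 5′ to 3′ on the strand of the gene, and carry the match in capitals. The first 6 show TGACNNNGC or its reverse complement, and the last shows TGANTCA.
GCLM (chr1:93909446-93909474, minus strand): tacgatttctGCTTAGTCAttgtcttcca
KEAP1 (chr19:10502784-10502812, minus strand): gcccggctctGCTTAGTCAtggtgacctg
TXNRD1 (chr12:104215660-104215708, plus strand): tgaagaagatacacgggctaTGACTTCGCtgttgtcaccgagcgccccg
CBR1 (chr21:36069845-36069893, plus strand): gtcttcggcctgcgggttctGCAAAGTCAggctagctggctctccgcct
ABCC4 (chr13:95301572-95301620, minus strand): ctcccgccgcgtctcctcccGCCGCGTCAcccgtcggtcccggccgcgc
ME1 (chr6:83431160-83431208, minus strand): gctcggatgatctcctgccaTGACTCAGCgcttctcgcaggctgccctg
OSGIN1 (chr16:83953123-83953169, plus strand): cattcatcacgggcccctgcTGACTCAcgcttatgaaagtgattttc
By the GENCODE 29 annotation the TXNRD1, CBR1, ABCC4 and ME1 stretches lie upstream of the gene, the GCLM and KEAP1 stretches overlap an exon, and the OSGIN1 stretch lies in an intron, before an internal start. In GCLM and KEAP1 the matched letters were the same, GCTTAGTCA, and began at positions -34 and -31 relative to the start. ME1 held both motifs in one place.

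Libraries had 16312600 to 19479416 counts. Short genes, those of up to 2734 exonic bases, took 18.1% and 18.98% of counts with CDD-3013, 16.9% and 15.5% with 1 µM CDD-2728, 15.6% and 16.4% with 10 µM CDD-2728, 15.1% and 15.4% with IL1β, and 14.9% and 15.9% with vehicle. Both CDD-3013 libraries thus stood above the rest, and ribosomal protein genes took 4.53% and 5.36% of their counts, against 3.16% to 4.17% in the other 8. Of 12 epithelial markers 5 had a mean under 1 CPM (counts relative to the TMM-scaled library size), among them EPCAM at 0.0729 CPM, while the keratin KRT8 was the highest at 6772 CPM, and the summed level of the list was 12280 and 13480 CPM with CDD-3013, against 8138 to 10670 CPM in the other 8 libraries. Stromal markers were all at 1 CPM or more, led by COL1A1 at 2800 CPM (summed level 6814 to 7972 CPM), as were mesothelial markers (943 to 1247 CPM). Of the endothelial markers 4 of 8 and of the immune markers 10 of 12 were under 1 CPM, PECAM1 and PTPRC included. Exons of NFE2L2, MAFG, GCLC, GSTM3, SRXN1, PRDX1, FTH1, SLC48A1, NQO1, CBR1, EPHX1, UGDH, OSGIN1 and TRIM16 overlap those of other annotated genes, and TXN and AKR1B1 have 7 named pseudogenes each, so that part of their reads is of uncertain origin. The part of the differences between libraries in the results below was not tested, other than by the length and GC content offsets described with CDD-3013.

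Relative to IL1β, the haem oxygenase HMOX1, the biliverdin reductase BLVRB and the ferritin heavy chain FTH1 rose with each of the 3 inhibitor treatments. The E3 ligase TRIM16 fell with each in edgeR, and in DESeq2 with 10 µM CDD-2728 only. A gene is counted as higher or lower at a Benjamini-Hochberg adjusted p under 0.05 over all 15740 genes in edgeR's quasi-likelihood test. The 3 inhibitor comparisons share the same IL1β libraries, so a call repeated among them is not independent. ABCC1, ABCC3, AKR1B10, AKR1C3, ME1 and SRXN1 were called in none of the 6 comparisons made. In bulk RNA, fewer cells with a transcript and less of it per cell cannot be told apart. No label says that the 2 samples of a group came from separate cultures, so the p-values reflect only their spread, possibly a technical one.

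With 10 µM CDD-2728, 12 genes were higher and 3 lower than with IL1β alone (40.5% of the 37). The share of all tested genes called in this comparison was 31.5% (15.6% higher and 15.9% lower). The median log2 fold change was 0.17 over the 37 genes and 0.01 over all genes. Scaled by library totals, which moved the median of all genes to 0.07, 19 were higher and 3 lower (59.5%, against 31.7% of all genes). With CDD-3013, 19 genes were higher and 1 lower than with IL1β (54.1%), where 36.4% of all genes were called (19% higher and 17.3% lower), and the medians were 0.37 and -0.01. Scaled by library totals, these counts were 17 higher and 4 lower (56.8%, against 37.1% of all genes). With 1 µM CDD-2728, 4 genes were higher and 1 lower (13.5%), where 4.59% of all genes were called (2.03% higher and 2.57% lower), although 31 of the 37 fold changes were positive. The medians were 0.16 and 0.00. Each of the 5 calls at 1 µM CDD-2728 was lost in at least 1 fit that left out 1 library. In these fits the share of all genes called moved as well. The median of the 37 was 0.16 without the first IL1β library and 0.18 without the second. It was 0.08 without the first 1 µM library and 0.21 without the second.

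**Figure D1:**
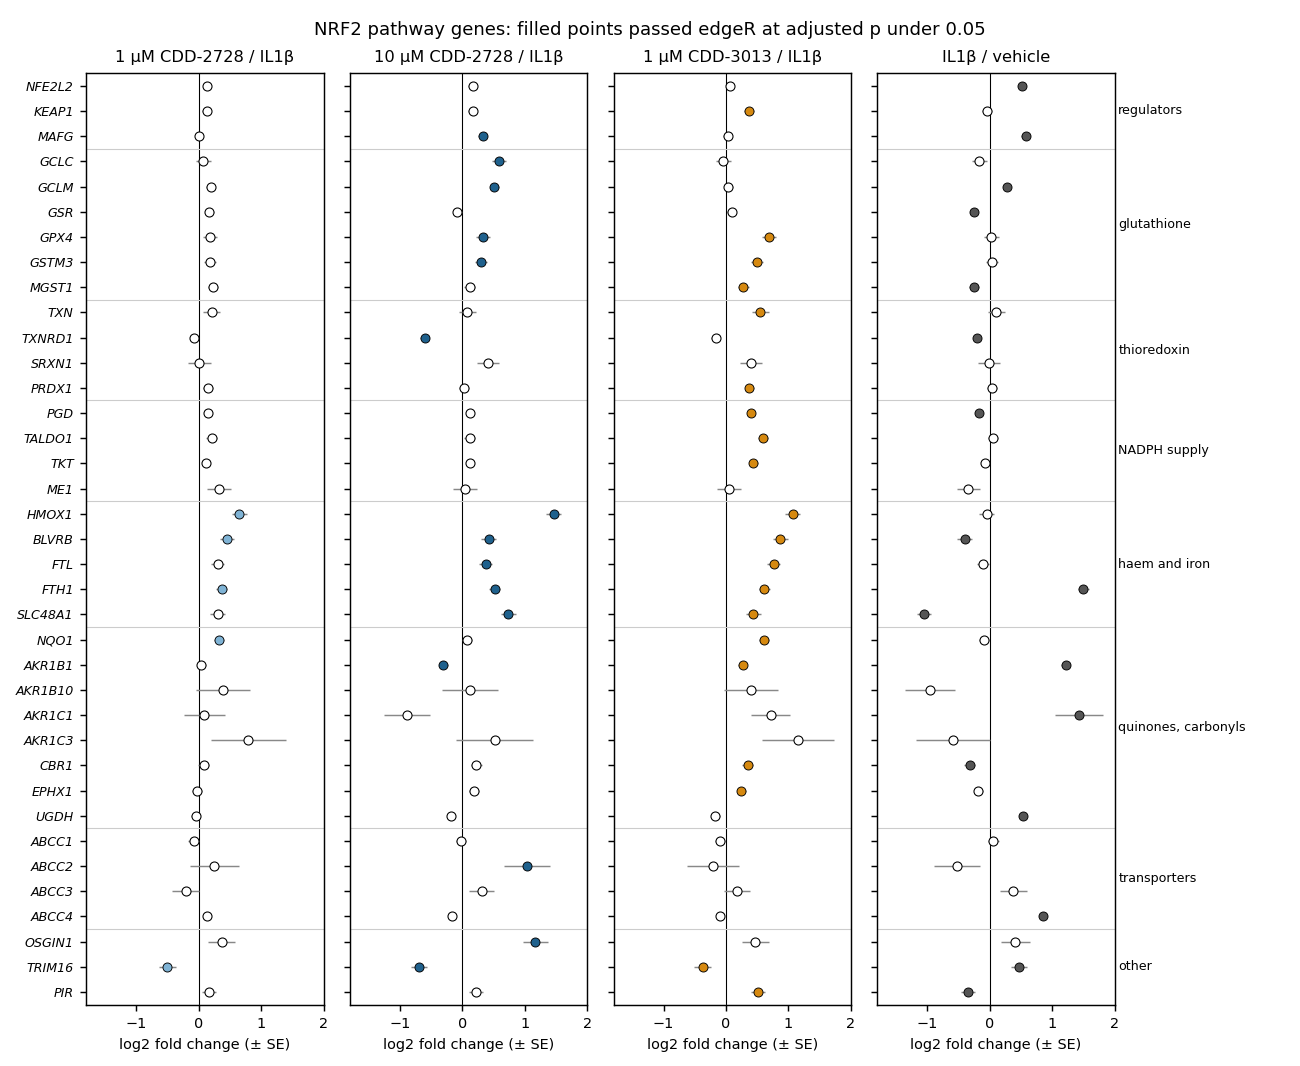
Log2 fold changes (x axis, ± SE) of the 37 tested genes (rows, grouped by role) for 1 µM CDD-2728, 10 µM CDD-2728 and 1 µM CDD-3013, each against IL1β, and for IL1β against vehicle. Filled points passed edgeR's test at an adjusted p under 0.05; all 5 haem and iron genes are filled at 10 µM CDD-2728 and with CDD-3013, and the transporters, apart from ABCC2 at 10 µM and ABCC4 under IL1β, are open.

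IL1β alone moved the group in both directions. Relative to vehicle, 9 genes were higher and 8 lower (45.9%), where 32.6% of all genes were called (17.6% higher and 15% lower), and the medians were -0.04 over the 37 genes and -0.01 over all genes. Scaling by library totals, which moved the median of all genes to -0.18, gave 7 higher and 16 lower (62.2%, against 40.4% of all genes). Some of these calls were lost when 1 library was left out, in fits where the share of all genes called fell as well. The median of the 37 was -0.08 without the first vehicle library and 0.03 without the second. It was 0.01 without the first IL1β library and -0.05 without the second. NFE2L2, MAFG, FTH1, SLC48A1, AKR1B1, UGDH and ABCC4 were called under every alternative tried.

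All 5 haem and iron genes were higher with 10 µM CDD-2728 and with CDD-3013 than with IL1β, in comparisons where 15.6% and 19% of all genes were higher. With the length and GC offsets described further on, SLC48A1 no longer passed with CDD-3013 (0.29, edgeR adjusted p = 0.0574), which left 4 of the 5. HMOX1 (chr22:35380361-35394214, plus strand), the enzyme that opens the haem ring, had 20.5 and 19.4 CPM with 1 µM CDD-2728, 35.1 and 34.8 CPM with 10 µM CDD-2728, 24.1 and 29.3 CPM with CDD-3013, 12.3 and 13.1 CPM with IL1β alone and 12.4 and 13.9 CPM with vehicle. The IL1β and vehicle libraries overlapped, and each inhibitor library lay above all 4 of them. HMOX1 rose by 1.46 ± 0.12 on the log2 scale at 10 µM CDD-2728 (2.75-fold), by 1.07 ± 0.12 with CDD-3013 and by 0.65 ± 0.12 at 1 µM CDD-2728 (edgeR adjusted p = 1.78e-09, 9e-07 and 0.0017). The value at 1 µM did not pass without the first IL1β library (adjusted p = 0.0535 in edgeR, the highest over its alternatives, where the lowest was 1.83e-05). IL1β itself left HMOX1 at a log2 difference of -0.05 ± 0.12 from vehicle, with a 95% interval of -0.31 to 0.21.

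SLC48A1 (chr12:47753916-47782753, plus strand), which carries haem out of endosomes, fell with the cytokine. Its levels were 14.0 and 15.7 CPM with 1 µM CDD-2728, 19.8 and 20.4 CPM with 10 µM CDD-2728, 16.7 and 15.8 CPM with CDD-3013, 11.9 and 12.2 CPM with IL1β alone and 24.4 and 25.4 CPM with vehicle. The 5 groups did not overlap, with IL1β lowest and vehicle highest. SLC48A1 fell by 1.05 ± 0.11 on the log2 scale with IL1β (2.07-fold lower, edgeR adjusted p = 9.03e-08), and was higher than IL1β by 0.74 ± 0.12 at 10 µM CDD-2728 (edgeR adjusted p = 3.49e-05) and by 0.43 ± 0.12 with CDD-3013 (edgeR adjusted p = 0.00646). All inhibitor libraries stayed below both vehicle libraries.

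The ferritins store iron, and the heavy chain oxidizes it. FTH1 (chr11:61959718-61967660, minus strand) had 2392.5 and 2176 CPM with 1 µM CDD-2728, 2310.3 and 2774 CPM with 10 µM CDD-2728, 2719.6 and 2697.5 CPM with CDD-3013, 1672 and 1875 CPM with IL1β alone and 590.45 and 666 CPM with vehicle. It had the largest log2 rise of the 37 genes with IL1β, 1.498 ± 0.09 (2.82-fold, edgeR adjusted p = 8.49e-12), and every inhibitor library lay above both IL1β libraries. The further rises were 0.37 ± 0.09 at 1 µM CDD-2728, 0.52 ± 0.09 at 10 µM and 0.61 ± 0.09 with CDD-3013 (edgeR adjusted p = 0.0161, 9.57e-05 and 2.11e-05). For FTL, the light chain, the log2 difference with IL1β was -0.11 ± 0.10 and did not pass (95% interval -0.32 to 0.11). It rose by 0.37 ± 0.10 at 10 µM CDD-2728 and by 0.76 ± 0.10 with CDD-3013 (edgeR adjusted p = 0.00971 and 2.79e-05). FTH1 and FTL have 25 and 16 named pseudogenes, and FTH1 shares exonic sequence with BEST1 on the other strand, so the share of reads from such copies is uncertain.

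BLVRB (chr19:40447765-40465840, minus strand) is a biliverdin reductase. It had 42.6 and 32.4 CPM with 1 µM CDD-2728, 35.1 and 38.3 CPM with 10 µM CDD-2728, and 47.4 and 52.9 CPM with CDD-3013. With IL1β alone it had 27.0 and 27.9 CPM, and with vehicle 33.3 and 39.3 CPM. It fell by 0.40 ± 0.12 on the log2 scale with IL1β (edgeR adjusted p = 0.0105), and each inhibitor library lay above both IL1β libraries. Against IL1β its differences were 0.46 ± 0.12 at 1 µM CDD-2728, 0.42 ± 0.12 at 10 µM and 0.87 ± 0.12 with CDD-3013 (edgeR adjusted p = 0.027, 0.00887 and 1.03e-05). The inhibitor libraries reached or passed the vehicle range of 33.3 to 39.3 CPM, except the second 1 µM CDD-2728 library at 32.4 CPM.

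**Figure D2:**
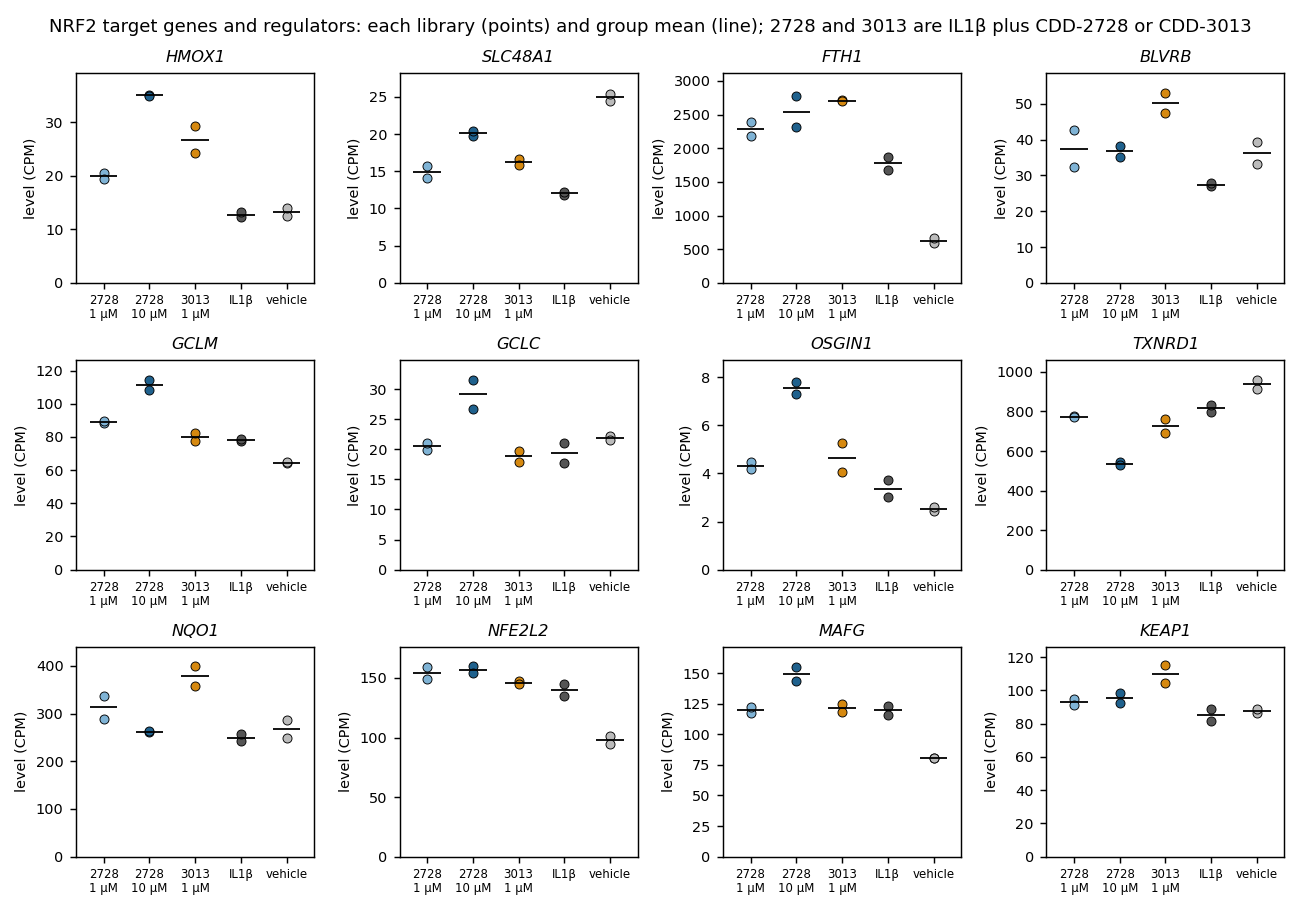
Levels of 12 genes in CPM (y axis, from 0) in each of the 10 libraries (points) and as group means (lines), with the groups 1 µM CDD-2728, 10 µM CDD-2728, 1 µM CDD-3013, IL1β and vehicle along the x axis. HMOX1 is highest at 10 µM CDD-2728 (35.1 and 34.8 CPM), TXNRD1 lowest there (543 and 531 CPM), and FTH1 and NFE2L2 are lowest with vehicle.

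At 10 µM CDD-2728 both subunits of glutamate-cysteine ligase, the first enzyme of glutathione synthesis, rose, together with the lipid peroxide reductase GPX4 and the transferase GSTM3 (4 of 6 tested). Of these 4, only the ligase subunits were called under every alternative tried. Over the alternatives the log2 difference ran from 0.21 to 0.45 for GPX4 and from 0.26 to 0.36 for GSTM3. With CDD-3013 it was GPX4, GSTM3 and the microsomal transferase MGST1 that rose (3 of 6). At 1 µM CDD-2728 0 of 6 passed in edgeR (3 at an unadjusted p under 0.05) and 0 in DESeq2. GCLM passed there with the length and GC offsets (0.21, edgeR adjusted p = 0.0476). The shares of all genes called higher were 15.6% at 10 µM CDD-2728, 19% with CDD-3013 and 2.03% at 1 µM CDD-2728. GCLM (chr1:93885205-93909456, minus strand), the modifier subunit, had 88.7 and 89.5 CPM with 1 µM CDD-2728, 114 and 108 CPM with 10 µM CDD-2728, 77.6 and 82.5 CPM with CDD-3013, 77.3 and 78.6 CPM with IL1β alone and 64.0 and 64.7 CPM with vehicle. The 10 µM libraries were the highest and the vehicle libraries the lowest, without overlap. GCLM rose by 0.51 ± 0.07 on the log2 scale at 10 µM against IL1β and by 0.28 ± 0.07 with IL1β against vehicle (edgeR adjusted p = 6.14e-06 and 0.00417), and its difference with CDD-3013 was 0.04 ± 0.07 (95% interval -0.11 to 0.19). With the length and GC offsets the CDD-3013 difference was 0.22 and passed (edgeR adjusted p = 0.00925).

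GCLC (chr6:53497341-53616970, minus strand), the catalytic subunit, had 19.9 and 21.1 CPM with 1 µM CDD-2728, 31.5 and 26.7 CPM with 10 µM CDD-2728, 19.8 and 17.8 CPM with CDD-3013, 21.1 and 17.8 CPM with IL1β alone and 22.2 and 21.5 CPM with vehicle. The 10 µM libraries lay above all others, and the IL1β range enclosed those with 1 µM CDD-2728 and CDD-3013. GCLC rose by 0.58 ± 0.11 on the log2 scale at 10 µM (edgeR adjusted p = 0.000405), and its difference was -0.05 ± 0.12 with CDD-3013 (95% interval -0.30 to 0.20). GSTM3 rose by 0.30 ± 0.10 and 0.49 ± 0.10 at 10 µM CDD-2728 and with CDD-3013, and MGST1 by 0.28 ± 0.08 with CDD-3013 (edgeR adjusted p = 0.0223, 0.000436 and 0.0112). GPX4 rose with CDD-3013 by 0.69 ± 0.11, against 0.33 ± 0.11 at 10 µM CDD-2728 (edgeR adjusted p = 0.000436 and 0.0412). With the offsets the CDD-3013 value was 0.31 for GPX4, 0.51 for GSTM3 and 0.46 for MGST1. The glutathione reductase GSR fell by 0.25 ± 0.07 with IL1β (edgeR adjusted p = 0.00864) and differed from IL1β by -0.08 to 0.16 in the inhibitor groups, none of them called.

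TXNRD1 (chr12:104215779-104350305, plus strand), the reductase that recycles thioredoxin, fell at the dose where the glutathione ligase rose. It had 775 and 773 CPM with 1 µM CDD-2728, 543 and 531 CPM with 10 µM CDD-2728, 690.22 and 764 CPM with CDD-3013, 797 and 835 CPM with IL1β alone and 915 and 959.9 CPM with vehicle. The 10 µM libraries were the lowest of all and the vehicle libraries the highest. TXNRD1 fell by 0.60 ± 0.07 on the log2 scale at 10 µM CDD-2728 against IL1β (1.52-fold lower, edgeR adjusted p = 4.39e-07) and by 0.20 ± 0.07 with IL1β against vehicle (edgeR adjusted p = 0.0258). With CDD-3013 the difference was -0.17 ± 0.07 (edgeR adjusted p = 0.0597), which did not pass.

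SRXN1 (chr20:646615-653370, minus strand), the sulfiredoxin that repairs overoxidized peroxiredoxins, had 6.26 and 5.13 CPM with 1 µM CDD-2728, 7.74 and 7.35 CPM with 10 µM CDD-2728, 7.07 and 7.84 CPM with CDD-3013, 5.99 and 5.34 CPM with IL1β alone and 5.35 and 6.13 CPM with vehicle. Both 10 µM CDD-2728 and both CDD-3013 libraries lay above every other library, at differences from IL1β of 0.41 ± 0.18 and 0.39 ± 0.18 that did not pass (edgeR adjusted p = 0.0765 and 0.088). Its exons overlap those of AL121758.1 on the same strand, so that its reads can be split between them. Thioredoxin itself, TXN, and the peroxiredoxin PRDX1 rose with CDD-3013, by 0.55 ± 0.14 and 0.37 ± 0.08 (edgeR adjusted p = 0.00689 and 0.000684), and at 10 µM CDD-2728 they differed from IL1β by 0.07 ± 0.14 and 0.02 ± 0.08. With the length and GC offsets the CDD-3013 difference of TXN was 0.41 and passed. That of PRDX1 was 0.07 and did not (edgeR adjusted p = 0.0332 and 0.367).

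Of the genes of NADPH supply, the 3 of the pentose phosphate pathway rose with CDD-3013: PGD, which makes NADPH, and TALDO1 and TKT of its non-oxidative branch. They were higher than with IL1β by 0.40 ± 0.06, 0.59 ± 0.08 and 0.44 ± 0.07 (edgeR adjusted p = 4.4e-05, 1.97e-05 and 2.64e-05). Their levels with CDD-3013 were 308 ± 1.29, 354 ± 31.6 and 627 ± 14.4 CPM, against 233 ± 7.50, 235 ± 7.89 and 462 ± 1.67 CPM with IL1β (SD, n = 2 each). With the length and GC offsets these differences were 0.18, 0.33 and 0.49, all still called. At 10 µM CDD-2728 the same 3 genes differed by 0.12 to 0.13, and 0 of the 4 passed in edgeR (0 at an unadjusted p under 0.05) or in DESeq2. The shares of all genes called were 36.4% with CDD-3013 and 31.5% at 10 µM CDD-2728. The malic enzyme ME1, whose promoter stretch above holds TGACTCAGC, was called in no comparison, with group means of 4.65 to 5.92 CPM.

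Quinone and carbonyl reductases responded one by one. NQO1 (chr16:69706996-69726951, minus strand), the quinone reductase often used as a readout of NRF2, had 337 and 289.6 CPM with 1 µM CDD-2728, 262 and 262 CPM with 10 µM CDD-2728, 359 and 399 CPM with CDD-3013, 242 and 257 CPM with IL1β alone and 248 and 286 CPM with vehicle. Both CDD-3013 libraries were above all others, the 10 µM libraries were just above IL1β, and the vehicle libraries overlapped both of these groups' range. NQO1 rose by 0.60 ± 0.08 on the log2 scale with CDD-3013 and by 0.33 ± 0.08 at 1 µM CDD-2728 (edgeR adjusted p = 8.99e-06 and 0.0192). At 10 µM CDD-2728 its difference was 0.07 ± 0.08, with a 95% interval of -0.10 to 0.24. The annotation has an antisense gene, AC092115.2, over part of its exons, and the strand setting of the counts is not known.

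AKR1B1 (chr7:134442350-134459284, minus strand), the aldose reductase, was the gene of the group with the smallest adjusted p. It had 377 and 315 CPM with 1 µM CDD-2728, 279 and 266 CPM with 10 µM CDD-2728, 403 and 408 CPM with CDD-3013, 332 and 342 CPM with IL1β alone and 139.85 and 151 CPM with vehicle. IL1β raised it by 1.21 ± 0.08 on the log2 scale (2.32-fold, edgeR adjusted p = 8.06e-12). Against IL1β it then moved in opposite directions, lower by a log2 difference of -0.30 ± 0.08 at 10 µM CDD-2728 and higher by 0.27 ± 0.07 with CDD-3013 (edgeR adjusted p = 0.00324 and 0.00735), doses that differ. With the length and GC offsets the difference was -0.35 at 10 µM CDD-2728 and still called. With CDD-3013 it was 0.09 and did not pass (edgeR adjusted p = 0.267). All inhibitor libraries stayed above both vehicle libraries.

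UGDH (chr4:39498755-39528311, minus strand), which makes UDP-glucuronic acid for conjugation, had 103 and 100.07 CPM with 1 µM CDD-2728, 95.4 and 90.0 CPM with 10 µM CDD-2728, 92.2 and 94.6 CPM with CDD-3013, 108 and 102 CPM with IL1β alone and 70.6 and 74.6 CPM with vehicle. It rose by 0.53 ± 0.07 with IL1β (edgeR adjusted p = 2.18e-06) and its differences in the inhibitor groups ran from -0.18 to -0.05 without passing. The carbonyl reductase CBR1 fell by 0.32 ± 0.09 with IL1β and rose by 0.35 ± 0.09 with CDD-3013 (edgeR adjusted p = 0.00663 and 0.00373). With the length and GC offsets its CDD-3013 difference was 0.09 and did not pass (edgeR adjusted p = 0.386). The microsomal epoxide hydrolase EPHX1 was higher with CDD-3013 by 0.25 ± 0.08 (edgeR adjusted p = 0.0144), a difference of -0.06 with the length and GC offsets described further on. AKR1C1 had group means of 0.788 to 3.45 CPM and rose by 1.42 ± 0.39 with IL1β (edgeR adjusted p = 0.00492). AKR1C1, AKR1C2 and AKR1C3 are related in sequence, to differing degrees, and reads can be split or lost between related copies, so their values are uncertain. AKR1B10, a reductase near AKR1B1 in sequence, had group means of 0.846 to 1.66 CPM and was not called.

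ABCC4 (chr13:95019829-95301475, minus strand), an exporter of conjugates and prostaglandins, rose with the cytokine. Its levels were 162 and 177 CPM with 1 µM CDD-2728, 134 and 141 CPM with 10 µM CDD-2728, 140.37 and 148 CPM with CDD-3013, 156 and 153 CPM with IL1β alone and 83.9 and 87.2 CPM with vehicle. All 8 libraries with IL1β lay above both vehicle libraries. ABCC4 was higher with IL1β than with vehicle by 0.85 ± 0.07 on the log2 scale (1.81-fold, edgeR adjusted p = 7.09e-10), and its differences from IL1β ran from -0.17 to 0.14 in the inhibitor groups, none called. ABCC2, at group means of 1.14 to 2.67 CPM, was higher at 10 µM CDD-2728 by 1.03 ± 0.36 in edgeR (adjusted p = 0.0304) and not called by DESeq2. ABCC1 and ABCC3, exporters of glutathione and glucuronide conjugates, had group means of 81.1 to 87.0 and 3.60 to 5.77 CPM.

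OSGIN1, an oxidative-stress-induced growth inhibitor, had 4.45 and 4.20 CPM with 1 µM CDD-2728, 7.79 and 7.29 CPM with 10 µM CDD-2728, 4.04 and 5.25 CPM with CDD-3013, 3.02 and 3.71 CPM with IL1β alone and 2.45 and 2.61 CPM with vehicle. Its 10 µM libraries lay above all others. OSGIN1 rose by 1.17 ± 0.20 there (2.25-fold against IL1β, edgeR adjusted p = 0.000105), the largest rise after that of HMOX1 in that comparison. Part of its exons is shared with AC009119.2 on the same strand. TRIM16, a ubiquitin ligase, had 10.1 and 11.5 CPM with 1 µM CDD-2728, 9.71 and 9.09 CPM with 10 µM CDD-2728, 11.8 and 11.7 CPM with CDD-3013, 15.4 and 15.1 CPM with IL1β alone and 11.7 and 10.2 CPM with vehicle. It rose by 0.47 ± 0.13 with IL1β (edgeR adjusted p = 0.00631), and with the inhibitors its levels ran from 9.09 to 11.8 CPM, against 10.2 to 11.7 CPM with vehicle. Against IL1β its log2 differences were -0.50 ± 0.13 at 1 µM CDD-2728, -0.70 ± 0.13 at 10 µM and -0.38 ± 0.13 with CDD-3013 (edgeR adjusted p = 0.0284, 0.000336 and 0.0285). In DESeq2 its fall passed at 10 µM only. With CDD-3013 it also did not pass in edgeR with no filter, and over all alternatives this difference ran from -0.46 to -0.35. TRIM16 shares exonic sequence with AC005324.3 on the same strand. The iron-binding nuclear protein gene PIR fell by 0.35 ± 0.11 with IL1β and rose by 0.52 ± 0.11 with CDD-3013 (edgeR adjusted p = 0.0177 and 0.000891).

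The transcript of NRF2 itself rose with IL1β. NFE2L2 (chr2:177227595-177392697, minus strand) had 149 and 159 CPM with 1 µM CDD-2728, 159.76 and 154 CPM with 10 µM CDD-2728, 148 and 145 CPM with CDD-3013, 135 and 145 CPM with IL1β alone and 101 and 94.6 CPM with vehicle. All libraries with IL1β lay above both vehicle libraries, and the difference was 0.52 ± 0.07 on the log2 scale (1.43-fold, edgeR adjusted p = 2.21e-06). Differences between the inhibitor groups and IL1β were 0.14, 0.17 and 0.06, at 1 µM CDD-2728, 10 µM CDD-2728 and CDD-3013, and did not pass (edgeR adjusted p = 0.298, 0.0666 and 0.53). With the length and GC offsets the difference at 10 µM passed (0.17, edgeR adjusted p = 0.0220). These are transcript levels, and NRF2 protein was not measured in these data.

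MAFG (chr17:81918270-81927714, minus strand), a DNA-binding partner of NRF2, had 118 and 122 CPM with 1 µM CDD-2728, 155 and 144 CPM with 10 µM CDD-2728, 125 and 118 CPM with CDD-3013, 124 and 116 CPM with IL1β alone and 80.4 and 80.4 CPM with vehicle. It rose by 0.57 ± 0.07 with IL1β and by 0.32 ± 0.07 more at 10 µM CDD-2728 (edgeR adjusted p = 6.81e-07 and 0.000909). The 1 µM CDD-2728, CDD-3013 and IL1β libraries overlapped. KEAP1 (chr19:10486120-10503741, minus strand), the inhibitor, had 94.9 and 91.1 CPM with 1 µM CDD-2728, 92.1 and 98.5 CPM with 10 µM CDD-2728, 104 and 115 CPM with CDD-3013, 81.5 and 88.7 CPM with IL1β alone and 86.4 and 88.9 CPM with vehicle. Both CDD-3013 libraries lay above all others, by 0.37 ± 0.07 on the log2 scale against IL1β (edgeR adjusted p = 0.000504), a difference of 0.15 that was not called once gene length and GC content were offset.

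Between the doses of CDD-2728, HMOX1 and the glutathione ligase were higher at 10 µM and TXNRD1 was lower. At 10 µM against 1 µM, 7 genes were higher and 6 lower (35.1%), where 27.1% of all genes were called (13.3% higher and 13.8% lower), and the medians were 0.03 over the 37 genes and 0.01 over all genes. Scaling by library totals gave 10 higher and 3 lower (35.1%, against 26.8% of all genes). HMOX1 (0.81 ± 0.11), OSGIN1 (0.80 ± 0.20), GCLC (0.51 ± 0.11), SLC48A1 (0.44 ± 0.11), GCLM (0.32 ± 0.07), MAFG (0.32 ± 0.07) and EPHX1 (0.21 ± 0.08) were higher on the log2 scale at 10 µM. AKR1C1 (-0.98 ± 0.36), TXNRD1 (-0.53 ± 0.07), AKR1B1 (-0.34 ± 0.08), ABCC4 (-0.31 ± 0.07), NQO1 (-0.26 ± 0.08) and GSR (-0.25 ± 0.07) were lower. The calls of AKR1C1 and EPHX1 were lost in DESeq2 and when only the 4 libraries compared were fitted. Those of AKR1C1, NQO1 and GSR were lost when scaled by library totals. FTH1, FTL and BLVRB were called at 10 µM against IL1β, yet their dose differences of 0.15 ± 0.09, 0.07 ± 0.10 and -0.04 ± 0.11 did not pass, with 95% intervals of -0.03 to 0.34, -0.14 to 0.28 and -0.27 to 0.20. With the length and GC offsets the FTH1 dose difference passed (0.19, edgeR adjusted p = 0.0490).

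The compounds were compared at the dose they share, 1 µM, as 1 pair. With CDD-3013, 15 genes were higher and 1 was lower than with CDD-2728 (43.2%), where 17.9% of all genes were called (9.85% higher and 8.01% lower), and the medians were 0.24 and 0.00. Scaled by library totals, 7 were higher and 2 lower (24.3%, against 19.1% of all genes). GPX4 (0.51 ± 0.11), FTL (0.46 ± 0.10), HMOX1 (0.42 ± 0.11), BLVRB (0.42 ± 0.11), TALDO1 (0.39 ± 0.08), TKT (0.33 ± 0.07) and NQO1 (0.28 ± 0.08) were among those higher with CDD-3013 on the log2 scale, and the transporter ABCC4 (-0.23 ± 0.07) was lower. Of the 16 calls, only that of TKT held whichever library was left out, and the share of all genes called moved in these fits as well. The median of the 37 was 0.27 without the first CDD-2728 library and 0.17 without the second. It was 0.27 without the first CDD-3013 library and 0.20 without the second. The difference between the compounds did not pass the adjusted test for FTH1 (0.25 ± 0.09, 95% interval 0.07 to 0.43), SLC48A1 (0.13 ± 0.12, -0.11 to 0.37), GCLC (-0.12 ± 0.12, -0.37 to 0.13), GCLM (-0.15 ± 0.07, -0.30 to -0.01), TXNRD1 (-0.09 ± 0.07, -0.23 to 0.05) or NFE2L2 (-0.08 ± 0.07, -0.22 to 0.07).

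Both CDD-3013 comparisons moved with gene length. Against IL1β, the median log2 fold change over all tested genes was 0.23 among those of up to 2734 bases and -0.05 among the rest. Of the 37 NRF2 genes, the 22 no longer than the median gene (4609 bases) had a median of 0.43 and the 15 longer ones of 0.04. When trends over length and GC content in each library were entered as offsets, 15 genes were higher and 1 lower than with IL1β, 14 of them also called without offsets, and the median of the 37 was 0.18. The share called was 43.2% of the 37 and 28.4% of all genes. HMOX1, BLVRB, FTL, FTH1 and NQO1 were still higher, by 0.74, 0.48, 0.50, 0.35 and 0.51. KEAP1, PRDX1, SLC48A1, AKR1B1, CBR1 and EPHX1 were no longer called, while GCLM and AKR1C1 were, at 0.22 and 0.93. Against 1 µM CDD-2728, only TKT, NQO1 and GSTM3 of the 16 kept their call with the offsets, and the median was 0.07, with 8.11% of the 37 and 5.26% of all genes called. The offsets gave 16 calls for IL1β against vehicle, 6 and 16 for 1 and 10 µM CDD-2728 against IL1β, and 14 between the doses. These were 43.2%, 16.2%, 43.2% and 37.8% of the 37, against 37.2%, 6.18%, 35.4% and 31.8% of all genes.

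**Figure D3:**
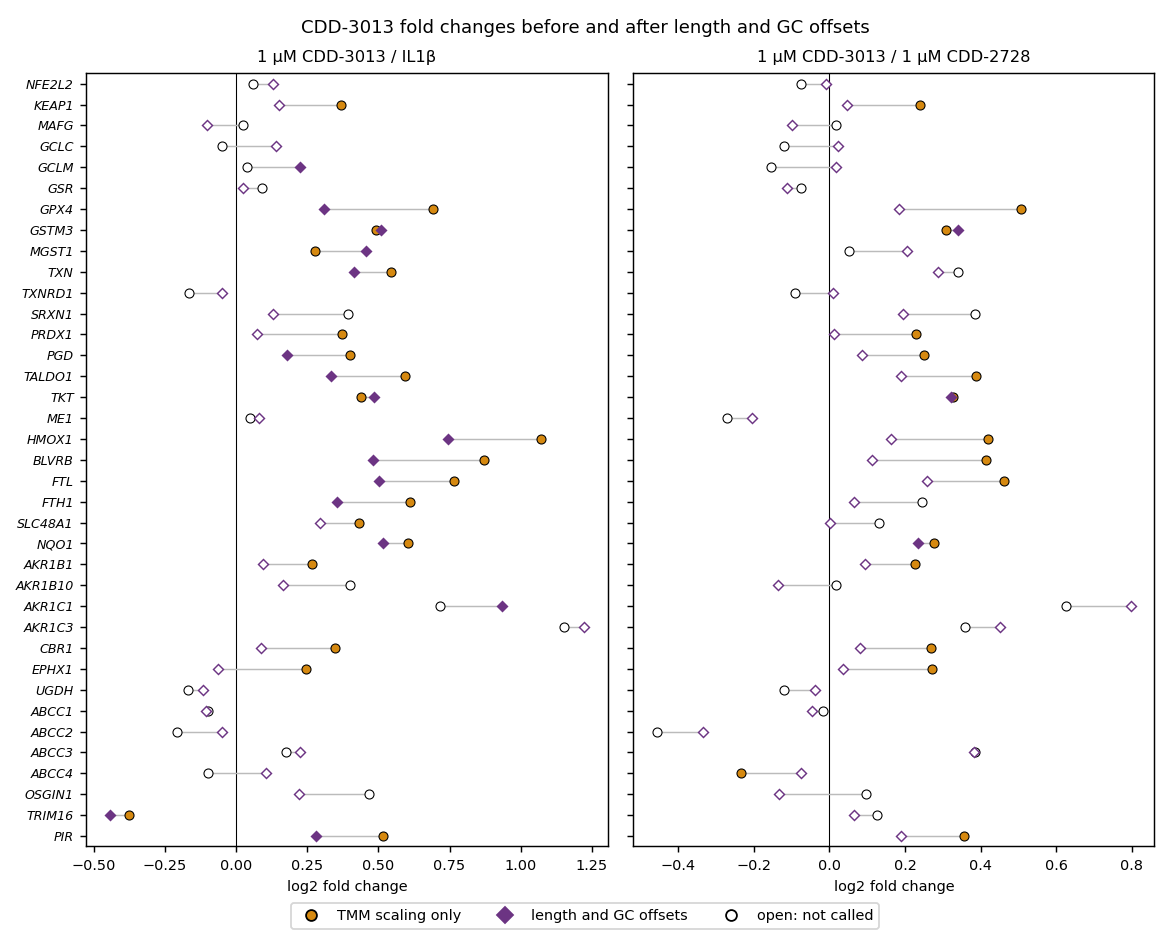
Log2 fold changes (x axis) of the 37 tested genes (rows) for 1 µM CDD-3013 against IL1β (left) and against 1 µM CDD-2728 (right), without (circles) and with (diamonds) offsets for gene length and GC content; open symbols were not called. On the left the diamonds of HMOX1, BLVRB and FTL lie nearer 0 than their circles and stay filled, and TKT, NQO1 and GSTM3 keep filled diamonds on the right.

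Compared per kilobase of exon, levels over all 10 libraries spanned from FTL at 1119 and FTH1 at 979 CPM per kb down to AKR1C2 at 0.0142. PRDX1 (312), TXN (179.6), TXNRD1 (113) and GPX4 (104) followed the ferritins. NFE2L2 (23.2), MAFG (22.7) and KEAP1 (25.03) had like levels per kb. HMOX1 stood at 8.94 and OSGIN1 at 1.29 CPM per kb, the ranks 24 and 32 of the 39.

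Among 12 partners, repressors and degradation factors of NRF2 outside the 39, IL1β raised 7 (58.3% called, against 32.6% of all genes) and lowered 0 (0 at an unadjusted p under 0.05 in edgeR, 0 in DESeq2). The small MAF gene MAFF had 78.0 ± 3.72 CPM with IL1β against 15.6 ± 0.795 CPM with vehicle (log2 fold change 2.32 ± 0.09), and the repressor BACH1 had 127 ± 10.2 CPM with IL1β against 44.4 ± 2.97 CPM with vehicle (SD, n = 2 each; log2 fold change 1.51 ± 0.08; edgeR adjusted p = 7.02e-16 and 5.01e-13). BACH1 then fell by 0.42 ± 0.08 with CDD-3013 (edgeR adjusted p = 0.000278), and was at 156 ± 7.73 CPM with 10 µM and 114 ± 6.16 CPM with 1 µM CDD-2728, a dose difference of 0.45 ± 0.08 (edgeR adjusted p = 0.000154). BACH2 fell with every inhibitor treatment, with log2 differences of -1.23 ± 0.20, -1.05 ± 0.19 and -1.99 ± 0.22 at 1 µM CDD-2728, 10 µM CDD-2728 and CDD-3013 (edgeR adjusted p = 0.000265, 0.000165 and 5.6e-07). SQSTM1, a KEAP1-binding autophagy receptor, rose by 0.66 ± 0.07 at 10 µM CDD-2728 and by 0.49 ± 0.07 with CDD-3013 (edgeR adjusted p = 1.81e-07 and 1.55e-05). The CDD-3013 values of BACH1, BACH2 and SQSTM1 are without the length and GC offsets. In all, 3 of the 12 were higher and 6 lower at 10 µM CDD-2728, 3 and 4 with CDD-3013, and 0 and 3 at 1 µM CDD-2728 (1 higher at an unadjusted p under 0.05 in edgeR, 0 higher in DESeq2). The shares called were 75%, 58.3% and 25%, against 31.5%, 36.4% and 4.59% of all genes. The median log2 fold change of the 12 was 0.41 with IL1β, -0.06 and -0.18 at 1 and 10 µM CDD-2728 and -0.09 with CDD-3013.

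Of 34 further NRF2 targets, 26 were tested. With 10 µM CDD-2728, 8 were higher and 1 lower than with IL1β, and with CDD-3013 14 and 3. With the length and GC offsets the CDD-3013 counts were 13 and 2, where 28.4% of all genes were called. With 1 µM CDD-2728, 2 were higher and 0 lower (0 lower at an unadjusted p under 0.05 in edgeR, 0 in DESeq2). IL1β raised 2 and lowered 6. The shares called were 34.6% at 10 µM CDD-2728 and 30.8% with IL1β, near the 31.5% and 32.6% of all genes, and 65.4% with CDD-3013 and 7.69% at 1 µM CDD-2728, against 36.4% and 4.59% of all genes. Their median log2 fold changes were 0.12 and 0.07 at 1 and 10 µM CDD-2728, 0.38 with CDD-3013 and -0.10 with IL1β. With the length and GC offsets the CDD-3013 median was 0.27. The iron exporter SLC40A1 had 7.28 ± 0.803 CPM with IL1β against 36.1 ± 3.15 CPM with vehicle (SD, n = 2 each), a fall of 2.31 ± 0.14 on the log2 scale (edgeR adjusted p = 2.97e-12), and was higher than IL1β by 1.16 ± 0.15 at 10 µM CDD-2728 (edgeR adjusted p = 2.35e-06). The glutaredoxin GLRX and the haem-forming ferrochelatase FECH rose at 10 µM by 0.92 ± 0.15 and 0.51 ± 0.09 (edgeR adjusted p = 3.7e-05 and 0.000179). The cystine importer SLC7A11 was higher at 10 than at 1 µM CDD-2728, by 0.62 ± 0.10 (edgeR adjusted p = 7.95e-05). With CDD-3013 the transferase GSTP1 rose by 0.72 ± 0.12, the quinone reductase NQO2 by 0.59 ± 0.12 and the peroxiredoxin PRDX6 by 0.42 ± 0.07 (edgeR adjusted p = 0.000479, 0.00037 and 0.000132). These CDD-3013 values of single genes are without the length and GC offsets.

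**Figure D4:**
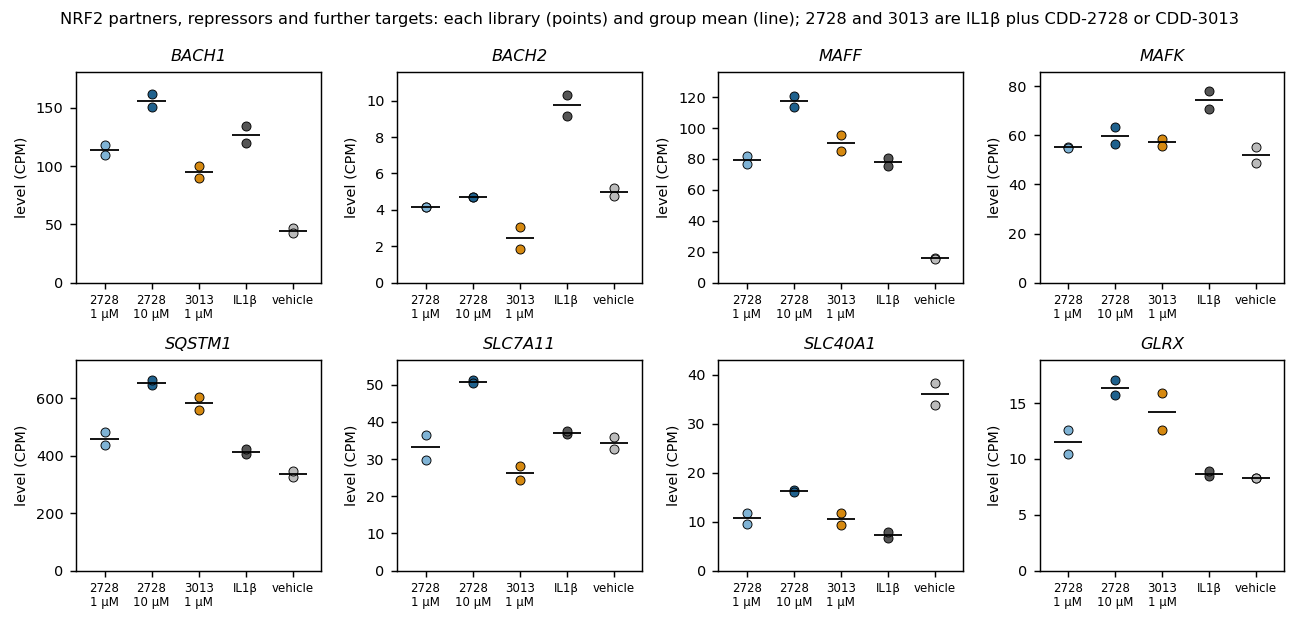
Levels in CPM (y axis, from 0) of 4 partners or repressors of NRF2, of SQSTM1 and of 3 further targets in each of the 10 libraries (points), with group means as lines; groups run along the x axis as 1 µM CDD-2728, 10 µM CDD-2728, 1 µM CDD-3013, IL1β and vehicle. BACH1 and MAFF are lowest with vehicle, BACH2 and MAFK are highest with IL1β, and SLC40A1 is highest with vehicle (33.8 and 38.3 CPM).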

How the data were processed

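Poly(A) RNA of 10 libraries (5 groups of 2) was measured. The submitters' processing notes name fastp, STAR and featureCounts as tools and hg38 as build. Versions and the strand setting were not given in the sources used here. Whole-number read counts per gene ID and library, in 1 table that the authors deposited, were the input of every fit. Of 62750 gene IDs, 61918 matched a symbol with their version, 707 without it and 125 did not match. Coordinates and lengths came from GENCODE 29.

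The 39 genes, the role groups and the further pathway and marker lists were chosen with earlier results of these data known. Named in full are HMOX1, NQO1, GCLM, GCLC, SRXN1, TXNRD1, NFE2L2, KEAP1 and MAFG, and the 12 genes with the smallest adjusted p over the comparisons; OSGIN1 and TRIM16 were added with their values seen. Of each further list, up to 4 called genes with the smallest adjusted p per comparison qualified. Sequences are RefSeq, GRCh38.p14.

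Counts were filtered (filterByExpr, minimum count 10), scaled by TMM (0.917 to 1.11) and fitted with edgeR 4.0.16 (R 4.3.3; quasi-likelihood, robust, all 10 libraries, 5 residual degrees of freedom), with Benjamini-Hochberg adjustment over 15740 genes. The common biological coefficient of variation was 0.0604. Values are TMM-scaled CPM, and SE are Wald values not below counting error. Alternatives were RLE size factors, library totals, no filter, a minimum CPM of 5 in 2 libraries, a replicate block, offsets for length and GC content (loess, span 0.3, 2 rounds, prior count 2), fits of the 4 libraries compared, leaving out each library, and DESeq2 1.42.0. The fit was tested on simulated data.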

Additional observations from a re-analysis of the deposited data

How the results depend on the processing

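The 6 counts of called NRF2 genes (17 for IL1β against vehicle, 5, 15 and 20 for 1 µM CDD-2728, 10 µM CDD-2728 and CDD-3013 against IL1β, 13 between doses, 16 for CDD-3013 against CDD-2728) stayed within 1.5 times under the alternatives other than leaving out a library, except the last. For CDD-3013 against CDD-2728 the count was 9 with library totals (24.3% of the 37, against 19.1% of all genes) and 3 with length and GC offsets (8.11% against 5.26%). It was 3 with the replicate block and these offsets (8.11% against 4.34%), and 6 when only the 4 libraries compared were fitted (16.2% against 12.7%). The cause was not tested. Leaving out 1 library at a time gave 9 to 13, 0 to 11, 10 to 13, 15 to 19, 9 to 13 and 1 to 18, in the order above; a group left with 1 library was assumed to vary like the others. EPHX1 with CDD-3013 against IL1β reversed, to a log2 fold change of -0.0620 with the offsets (edgeR adjusted p = 0.520) and -0.0620 with the replicate block and offsets (0.527), the adjusted p over its alternatives being 0.00742 to 0.527. Among single genes, 2590 values kept their side of the threshold, 190 no longer passed and 67 newly passed. Another 2 changed sign with a call in at least 1 of the fits compared. A change of sign between values that both did not pass was counted as kept. Deviations of same-numbered libraries correlated at -0.114 to 0.0548. Such values cannot show whether the numbers pair the samples, and no label says so. The replicate block gave 16, 5, 15, 20, 13 and 14 calls. With 2 libraries per group, a gene that was not called, such as AKR1B10 or AKR1C3 at low counts, is not shown to have equal levels. Calls held under every alternative numbered 7, 0, 10, 11, 6 and 1, in the same order.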
